A study of Homo sapiens with 65 samples.

Results

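The 10 genes described here encode transcription factors of heart development: TBX5, NKX2-5, GATA4, GATA6, HAND1, HAND2, MEF2C, ISL1, TBX20 and IRX4. They were chosen by name, as 10 of the 58735 genes of the count table, and not from their values. Their levels were followed in 65 RNA-seq libraries of 16 groups. The libraries came from left-ventricular cardioids, heart-like aggregates differentiated in defined media from the human induced pluripotent stem cell line WTC-11. Each library pooled 8 cardioids, and the kit read only the 3′ ends of polyadenylated transcripts.

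The genotype arm compared wild type (WT) with lines labelled HAS2 knockout (KO). HAS2 encodes hyaluronan synthase 2, an enzyme that makes the extracellular polysaccharide hyaluronan. WT had 5 libraries at day 1.5, 6 at day 2.5, 6 at day 4.5 and 3 at day 7.5, from lines named WT, WT_TU, cl43_WT_UT and TNT2. KO had 6, 6, 6 and 3 libraries on the same days, from clones cl4, cl14, cl46 and cl51. Clone cl4 gave 3 of the 6 KO libraries on each of the first 3 days and 2 of 3 at day 7.5, so KO libraries were repeats of few clones. In the enzyme arm all groups were WT in genotype. Cardioids were left untreated (days 2.5, 4.5 and 7.5) or were given hyaluronidase, which cuts hyaluronan. The enzyme was present until collection. In the HAse1.5 groups it was added at day 1.5, with collection at days 2.5, 4.5 and 7.5. In the HAse2.5 groups it was added at day 2.5, with collection at days 4.5 and 7.5. Each enzyme-arm group had 3 libraries, 1 from each of the lines labelled TNNI1, WT and TNNT2.

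These factors bind DNA at heart genes and at one another's genes, and several act in shared complexes. GATA4 and GATA6 are zinc-finger factors present from cardiac mesoderm onward. NKX2-5 is a homeodomain factor that marks committed cardiac progenitors and cardiomyocytes. TBX5 and TBX20 are T-box factors, and TBX5 marks the first heart field, from which the left ventricle forms. HAND1 and HAND2 are basic helix-loop-helix factors known for left-sided and right-sided ventricular roles. ISL1 is a LIM-homeodomain factor of second heart field progenitors that is lost as cells become cardiomyocytes. MEF2C is a MADS-box activator of muscle genes, and IRX4 is a homeodomain factor restricted to ventricular myocardium.

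Promoter sequences are shown for the 3 members with the most called differences from controls: TBX5, HAND2 and ISL1. In its called differences TBX5 was lower than in controls, and in theirs HAND2 and ISL1 were higher. Other differences of these 3 from controls were not called, and some went the other way. At day 2.5 HAND2 and ISL1 had lower fitted values in KO (log2 fold changes −0.69 and −0.79) and in HAse1.5 (−1.25 and −0.31). Each is the run of 250 bases before the start in the RefSeq promoter table (build GRCh38.p14), in which 8 of the 10 members had an entry. Where a gene had several starts, the one nearest to the annotated 5′ end was taken. Capitals mark GATAA, a core that GATA factors can bind, on either strand (TTATC on the other strand). TBX5 lies on chromosome 12, minus strand, at chr12:114408443-114408692. HAND2 lies on chromosome 4, minus strand, at chr4:173530230-173530479. ISL1 lies on chromosome 5, plus strand, at chr5:51383198-51383447.
TBX5: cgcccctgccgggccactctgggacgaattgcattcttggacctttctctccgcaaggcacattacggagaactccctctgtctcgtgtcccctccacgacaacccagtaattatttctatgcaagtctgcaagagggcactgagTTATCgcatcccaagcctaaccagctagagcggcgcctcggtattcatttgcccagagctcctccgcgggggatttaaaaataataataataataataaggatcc
HAND2: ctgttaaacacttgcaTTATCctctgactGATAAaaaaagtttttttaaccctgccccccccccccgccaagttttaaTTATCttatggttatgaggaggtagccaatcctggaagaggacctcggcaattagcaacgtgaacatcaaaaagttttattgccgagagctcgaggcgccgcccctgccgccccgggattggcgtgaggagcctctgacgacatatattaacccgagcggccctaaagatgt
ISL1: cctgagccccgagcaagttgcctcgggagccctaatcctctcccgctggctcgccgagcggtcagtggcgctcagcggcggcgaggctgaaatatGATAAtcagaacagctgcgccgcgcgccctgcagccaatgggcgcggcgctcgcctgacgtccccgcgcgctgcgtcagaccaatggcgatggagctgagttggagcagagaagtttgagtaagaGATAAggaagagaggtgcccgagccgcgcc
The TBX5 sequence held 1 match, HAND2 held 3 and ISL1 held 2. Of the other members with an entry, HAND1 held 1, and GATA6, MEF2C, TBX20 and IRX4 held 0. Of 35116 promoter entries read in the same way, 20.4% held at least 1 match. The E-box motif CANNTG had 1 match in each of the 3 sequences shown and was in 61.8% of all entries. The motif AAGTG, an NKX2 core, was in HAND2 alone of the 3 and in 37.6% of all entries. The motif GGTGTG, a T-box half-site searched on both strands, was in none of the 3 sequences and in 14.2% of all entries. A match describes letters and was not tested as a binding site.

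Total counts per library ran from 831062 to 3574843 (median 1570954). Levels are given as CPM, counts scaled to equal library size, here with TMM factors. The 3′ kit reads 1 end per transcript and no length scaling was applied. Levels are compared within a gene across groups, and no ranking between genes was made. In these bulk libraries, fewer cells of a type and less RNA per cell cannot be told apart. HAS2 transcript was present in KO: at day 4.5 its level was 266 to 463 CPM in KO and 163 to 468 CPM in WT. The labels do not say which part of HAS2 was deleted, so a 3′ tag does not check the knockout. The labelled cell type is cardiac progenitor through day 4.5 and cardiomyocytes at day 7.5. The summed level of 15 cardiomyocyte markers was 71.5 to 189 CPM in WT at day 1.5 and 69600 to 75960 CPM at day 7.5. Libraries of day 1.5 therefore held few cardiomyocyte transcripts. In the genotype arm the library numbers ran in 3 blocks, here A, B and C. In block A, which holds 2 WT libraries and 1 KO library on each of the first 3 days, several members were higher than in the other WT libraries. KO against WT is therefore also given within blocks. At day 7.5 block A held 1 WT library, block B 2 WT and 1 KO, and block C 2 KO.

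TBX20 was barely measured. Its level was 0 in every library of day 1.5 and in the HAse1.5 libraries of day 2.5. It did not exceed 6.93 CPM in any library, which was an untreated library of day 7.5. With so few counts it failed the filter on low counts, so 9 of the 10 members entered the tests. The onset of a member is here the first sampled day on which every library of the group reached 10 CPM, and TBX20 had none.

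In WT the members came on in 4 steps. GATA4, GATA6, HAND1 and NKX2-5 reached 10 CPM in every library at day 1.5, the first day sampled. TBX5, HAND2 and ISL1 followed at day 2.5, MEF2C at day 4.5 and IRX4 at day 7.5. These days depend on the cutoff: with a cutoff of 20 CPM the onset of TBX5 and NKX2-5 moved to day 4.5, and with 5 CPM MEF2C moved to day 2.5 and IRX4 to day 4.5.

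**Figure D1:**
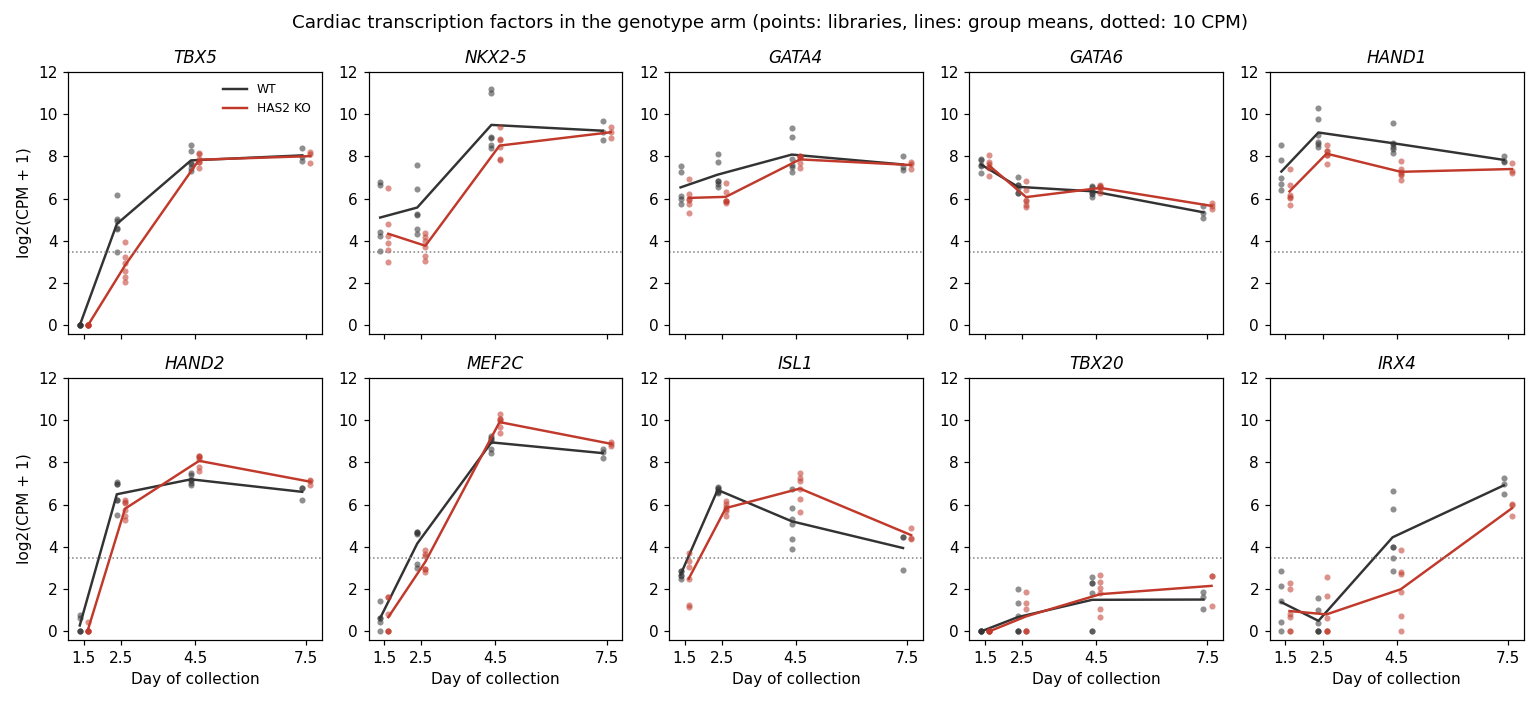
Level of each member as log2(CPM + 1) against day of collection in the genotype arm (WT dark, KO red). Points are libraries, lines join group means of the plotted values, and the dotted line is 10 CPM. In WT, TBX5 and HAND2 go from 0 or near 0 at day 1.5 to 10 CPM or more at day 2.5. MEF2C climbs to day 2.5 and again to day 4.5, IRX4 climbs later, and GATA6 only declines.

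GATA6 was at its highest at day 1.5, with 149 to 236 CPM in 5 WT libraries. It was 76.4 to 129 CPM at day 2.5, 65.7 to 96.7 CPM at day 4.5 and 32.6 to 49.2 CPM at day 7.5. It fell between days 1.5 and 2.5 (log2 fold change −1.09, SE 0.19, adjusted p = 1.44e-05, edgeR quasi-likelihood test with Benjamini-Hochberg adjustment over all tested genes, used throughout). It fell again between days 4.5 and 7.5 by 0.99 on the log2 scale (adjusted p = 0.0116), a call that was lost without WT_R1 or WT_TU_R2 of day 7.5 (adjusted p up to 0.144). Of the 9 members tested, GATA6 alone fell in both of these steps. GATA4 took another course, with a median of 69.6 CPM at day 1.5, 114 CPM at day 2.5 and 214 CPM at day 4.5. Its rise between days 2.5 and 4.5 was called (log2 fold change 1.12, SE 0.32, adjusted p = 0.00456), although the libraries of the 2 days overlapped.

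TBX5 had no count in any library of day 1.5. At day 2.5 it was at 10.2 to 70.4 CPM in WT (median 26.6, mean 31.4). That mean was 24.5-fold above a level of 3 counts per library at day 1.5, a lower bound on the rise of the mean. At day 4.5 it was at 155 to 372 CPM, a further rise of 2.96 on the log2 scale (SE 0.32, adjusted p = 6.14e-09). HAND2 gave 3 counts in all WT libraries of day 1.5 together. It was at 44.3 to 132 CPM at day 2.5, a ratio of summed CPM of 403 (95% counting interval 138 to 1960). MEF2C had a median of 0.563 CPM at day 1.5, 24.0 CPM at day 2.5 and 539 CPM at day 4.5. Both MEF2C steps separated the WT libraries without overlap, with log2 fold changes of 4.89 (SE 0.52, adjusted p = 8.31e-10) and 4.78 (SE 0.33, adjusted p = 9.48e-15).

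ISL1 rose and then fell in WT. It was at 4.54 to 6.32 CPM at day 1.5, 91.9 to 113 CPM at day 2.5, 14.1 to 105 CPM at day 4.5 and 6.52 to 21.2 CPM at day 7.5. The rise to day 2.5 was 4.21 on the log2 scale (SE 0.45, adjusted p = 9.61e-10), and it fell by 1.15 to day 4.5 (SE 0.35, adjusted p = 0.00834). HAND1 had its highest median, 465 CPM, at day 2.5, against 123 CPM at day 1.5 and 365 CPM at day 4.5. Its early rise was 1.75 on the log2 scale (SE 0.34, adjusted p = 8.82e-05), and its step to day 4.5 was not called (log2 fold change −0.51, adjusted p = 0.207).

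NKX2-5 had median levels of 20.3 CPM at day 1.5, 37.0 CPM at day 2.5 and 479 CPM at day 4.5 in WT. The last of these steps was called (log2 fold change 3.99, SE 0.62, adjusted p = 1.66e-06) and the first was not (0.33, adjusted p = 0.724). IRX4 stayed at or under 6.19 CPM through day 2.5. It was at 6.16 to 98.2 CPM at day 4.5, a rise of 5.65 on the log2 scale (SE 0.84, adjusted p = 8.51e-07), and at 90.7 to 152 CPM at day 7.5.

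By count, 6 of 9 tested members were called between days 1.5 and 2.5 in WT, 5 higher and 1 lower, while 30.1% of all 13797 tested genes were called. Between days 2.5 and 4.5, 7 were called, 6 higher and 1 lower, against 34.5% of all genes. Between days 4.5 and 7.5, 1 was called, against 2.7%. The median log2 fold change of the members was 1.75, 1.12 and −0.64 in these steps, and that of all genes was 0.01, 0.03 and −0.05. KO steps gave 6 calls (33.3% of all genes called), 7 calls (30.5%) and 4 calls (6.22%). The untreated groups gave 5 calls between days 2.5 and 4.5 (23% of 12748 genes) and 1 call to day 7.5 (6.39%). HAse1.5 gave 7 calls (22.7%) and then 0 (8.17%), and HAse2.5 gave 0 between days 4.5 and 7.5 (1.93%). For these zeros, 6 and 3 members had an unadjusted p under 0.05, and DESeq2 called 1 and 0. Of all 12748 tested genes, 2729 and 1664 had one.

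The untreated cardioids of the enzyme arm were sampled from day 2.5. At day 2.5, 8 of the 10 members reached 10 CPM in every untreated library, IRX4 did so at day 7.5 and TBX20 did not. MEF2C reached the cutoff at day 2.5 in these libraries, at 12.6, 40.5 and 35.6 CPM. By the group median it did so at day 2.5 in WT too (24.0 CPM). IRX4 was at 24.2, 14 and 0.643 CPM at day 4.5 and at 153, 105 and 29.8 CPM at day 7.5 in lines TNNI1, WT and TNNT2. With the line as a replicate block, its steps were called in both intervals (log2 fold changes 4.56 and 2.98, adjusted p = 0.0154 and 0.0159). In the fit without the line neither was called (adjusted p = 0.0715 and 0.0918), while the first was also called by DESeq2 and without the TNNT2 library of day 4.5. The GATA4 step to day 7.5 was called with the block (−0.65, adjusted p = 0.0378), with no filter on low counts and without the WT-line library of day 7.5, and not otherwise (adjusted p = 0.0832 in the fit without the line).

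At day 1.5 no member was called between KO and WT, and 0% of all genes were called. None of the 10 had all KO libraries apart from all WT libraries, and TBX5 had no count in either group. HAND1 alone had an unadjusted p under 0.05, with 50.7 to 170 CPM in KO and 83.9 to 375 CPM in WT, and DESeq2 called 0 members. Within each block HAND1 was lower in KO: 170 against 224 and 375 CPM in A, 50.7 against 83.9 CPM in B, and 63.9 to 100.2 against 100.8 and 123 CPM in C. Over all genes, 591 had an unadjusted p under 0.05.

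At day 2.5 TBX5 was lower in KO. It was at 3.09 to 14.3 CPM in KO (median 5.80, n = 6) and at 10.2 to 70.4 CPM in WT (median 26.6, n = 6), with an overlap between the lowest WT and the highest KO libraries. The log2 fold change was −2.06 (SE 0.35, adjusted p = 0.00163), or 4.17-fold lower. Within each block every KO library was below every WT library: 3.09 against 23.1 and 70.4 CPM in A, 6.71 against 10.2 and 23.0 CPM in B, and 3.85 to 14.3 against 30.1 and 31.4 CPM in C. Its onset in KO was day 4.5 and not day 2.5.

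TBX5 was the 1 member of 9 called at day 2.5, where 0.993% of all genes were called. Of all 13797 tested genes, 1450 had an unadjusted p under 0.05. Of the other members tested, 7 had one, all with lower values in KO: NKX2-5, GATA4, GATA6, HAND1, HAND2, MEF2C and ISL1. Their log2 fold changes ran from −2.25 for NKX2-5 to −0.38 for GATA6. Their adjusted p ran from 0.0712 to 0.453. ISL1 was the member whose groups did not overlap, at 43.4 to 70.2 CPM in KO and 91.9 to 113 CPM in WT, with an adjusted p of 0.382. GATA4, HAND1, HAND2 and NKX2-5 were also lower in the KO libraries of every block. Some gaps were small and rest on 1 KO library: HAND2 in A was at 73.2 against 74.0 and 132 CPM. In B, NKX2-5 was at 17.1 against 19.1 and 23.0 CPM. The share of all genes with such an order was not computed. GATA4 was at 105 against 215 and 277 CPM in A, 77.5 against 93.4 and 113 CPM in B, and 54.3 to 59.1 against 102 and 114 CPM in C.

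The member calls at day 2.5 moved with the libraries in the fit. Without block A, 4 members were called: TBX5, GATA4 (log2 fold change −0.76, adjusted p = 0.00258), HAND1 (−0.61, adjusted p = 0.0355) and MEF2C (−1.28, adjusted p = 0.00936). This fit was added after the data were seen. Without WT_TU_R2 NKX2-5 was called (−2.43, adjusted p = 0.0425). Cardiomyocyte markers differed on the same day: their sum was 500 to 3086 CPM in WT and 784 to 1698 CPM in KO, and 5 of 15 were called, all lower. Markers of primitive streak and early mesoderm summed to 136 to 234 CPM in KO and 54.5 to 146 CPM in WT, and 3 of 7 tested were called, all higher. The part of either in the members' values was not tested.

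**Figure D2:**
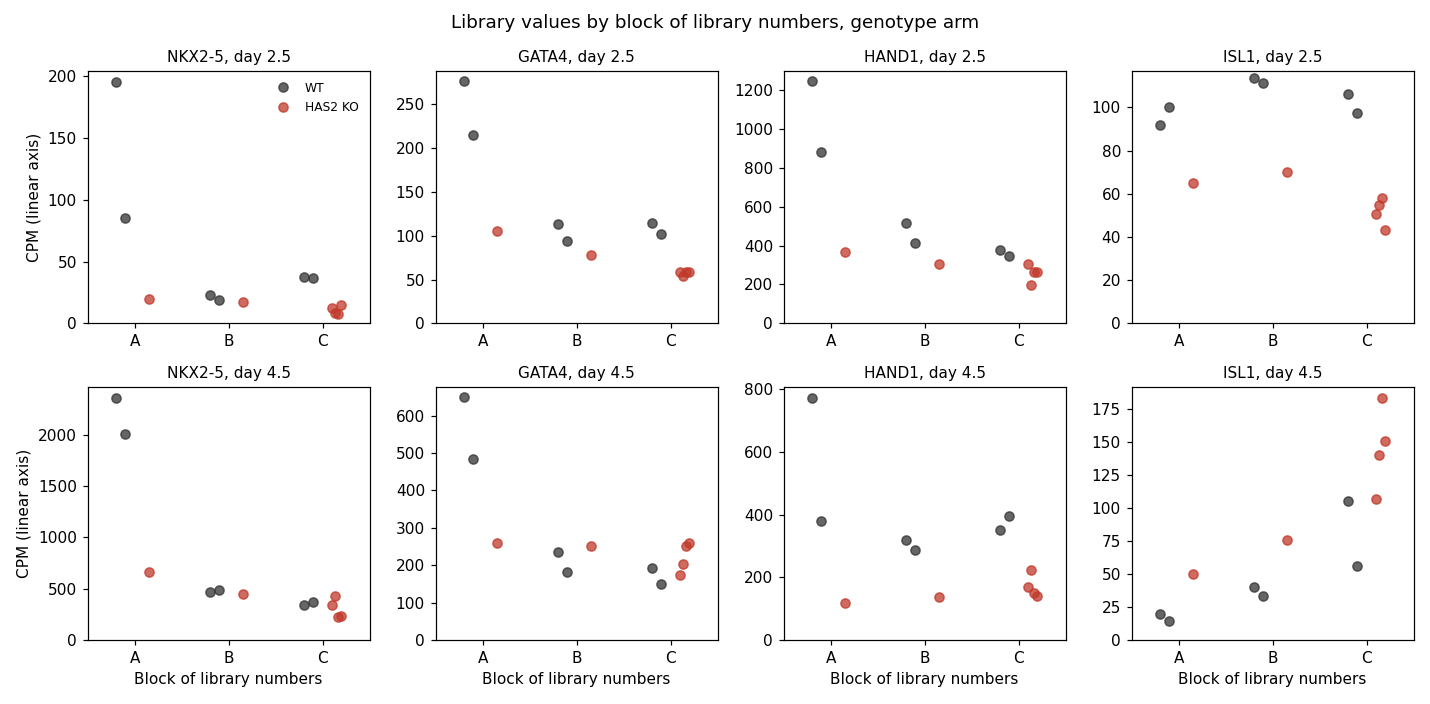
CPM on linear axes for NKX2-5, GATA4, HAND1 and ISL1 at days 2.5 and 4.5 in the genotype arm, with libraries placed by block of library numbers (WT dark, KO red). The 2 WT libraries of block A hold the highest NKX2-5 and GATA4 values on both days, and ISL1 is lower in KO at day 2.5 and higher at day 4.5 within each block.

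At day 4.5 the members split into 3 that were higher in KO and 2 that were lower. The 5 calls among 9 tested members stood against 3.74% of all genes called. The higher ones were HAND2, ISL1 and MEF2C, and the lower ones were HAND1 and IRX4. TBX5, lower 2 days before, was at 172 to 289 CPM in KO and 155 to 372 CPM in WT, with a log2 fold change of −0.01 (95% interval −0.60 to 0.58).

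HAND2 was at 196 to 320 CPM in KO (median 297) and 122 to 180 CPM in WT (median 143), with no overlap. The log2 fold change was 0.89 (SE 0.22, adjusted p = 0.0159). MEF2C was at 663 to 1266 CPM in KO and 353 to 619 CPM in WT, also apart, with a log2 fold change of 0.96 (SE 0.28, adjusted p = 0.0431). That call was lost in 11 of 18 alternatives, 10 of which left out 1 library each (KO cl14_R1, cl46_R1, cl4_R1, cl4_R2 or cl4_R3, or WT TNT2, WT_R1, WT_R2, WT_TU_R1 or WT_TU_R2), with adjusted p up to 0.129. HAND2-AS1, on the opposite strand of HAND2, was at 49.7 to 97.2 CPM in KO and 24.4 to 53.3 CPM in WT (log2 fold change 0.87, adjusted p = 0.0564).

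ISL1 at day 4.5 was at 49.6 to 183 CPM in KO (median 124) and 14.1 to 105 CPM in WT (median 36.3). The groups overlapped, and within blocks they did not: 49.6 against 14.1 and 19.7 CPM in A, 76.0 against 32.9 and 39.7 CPM in B, and 107 to 183 against 56.1 and 105 CPM in C. The log2 fold change was 1.4 (SE 0.35, adjusted p = 0.0157). Leaving out KO cl46_R1, KO cl51_R1, WT_R1 or WT_TU_R1 ended the call, as did a fit of the compared libraries alone (adjusted p = 0.11).

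HAND1 was lower in KO at day 4.5, at 118 to 222 CPM against 288 to 774 CPM in WT, with no overlap. The log2 fold change was −1.41 (SE 0.31, adjusted p = 0.00596), or 2.66-fold lower. The call held in all 18 alternatives. IRX4 was at 0 to 13.6 CPM in KO (median 4.08) and 6.16 to 98.2 CPM in WT (median 15.1), with a log2 fold change of −2.76 (SE 0.65, adjusted p = 0.00973). Its KO values lay below the WT values of the same block: 13.6 against 54.0 and 98.2 CPM in A, 5.98 against 15.0 and 15.2 CPM in B, and 0 to 5.51 against 6.16 and 10.1 CPM in C. Without block A the difference was −1.89 with an adjusted p of 0.0933, and the call was also lost without WT_R1 and in a fit of the compared libraries alone (adjusted p = 0.0762).

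NKX2-5 and GATA4 at day 4.5 were not called (log2 fold changes −1.34 and −0.42, adjusted p = 0.169 and 0.471). NKX2-5 was at 2013 and 2359 CPM in the WT libraries of block A, 336 to 489 CPM in the other 4 WT libraries and 226 to 665 CPM in KO. The sum of cardiomyocyte markers on this day was 15460 to 44410 CPM in KO and 34710 to 66570 CPM in WT, and 9 of 15 were called, all lower. None of the 15 was at 0 in either group. Markers of amnion and surface ectoderm summed to 70.0 to 151 CPM in KO and 23.4 to 57.3 CPM in WT, with 2 of 3 tested called higher. Their part in the members' differences was not tested.

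From day 2.5 to day 4.5 the KO difference itself changed for 4 members. The interaction terms were 2.19 for ISL1 (SE 0.49, adjusted p = 0.0205), 2.05 for TBX5 (SE 0.45, adjusted p = 0.0242), 1.96 for MEF2C (SE 0.44, adjusted p = 0.0205) and 1.58 for HAND2 (SE 0.32, adjusted p = 0.00812). All 4 differences moved up, and 0.609% of all genes were called. Without WT_R1 of day 2.5 or KO cl46_R1 of day 4.5 the TBX5 term was not called, and without cl46_R1 of day 4.5 neither was that of ISL1. TBX5, with no count at day 1.5, gave no test of a change from day 1.5 to 2.5. None of the other 8 members tested was called there (0.0797% of genes), and none of the 9 from day 4.5 to 7.5 (0.159%). For those zeros no member had an unadjusted p under 0.05 and DESeq2 called 0.

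At day 7.5 no member was called between KO and WT, with 0.348% of all genes called. Block B alone held both genotypes on this day, so outside it block and genotype cannot be told apart. Within B, IRX4 was at 61.9 CPM in KO against 90.7 and 125 CPM, and HAND1 at 158 against 216 and 255 CPM. No member had an unadjusted p under 0.05, and DESeq2 called 0. With 3 libraries a group the intervals were wide, from −0.19 to 1.09 for HAND2 and −2.70 to 0.46 for IRX4. IRX4 was at 61.9, 65.3 and 43.5 CPM in KO and 152, 90.7 and 125 CPM in WT, apart but not called (log2 fold change −1.12, adjusted p = 1). A fit of these libraries alone called it (adjusted p = 0.00756). HAND1 was also apart and lower (148 to 203 against 212 to 255 CPM, adjusted p = 1). HAND2 and MEF2C had higher values in KO with groups apart, HAND2 at 144, 140 and 123 CPM against 110, 111 and 73.6 CPM. With 3 libraries a group, groups can lie apart by chance. The share of all genes whose groups lay apart was not computed for this or any other comparison.

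**Figure D3:**
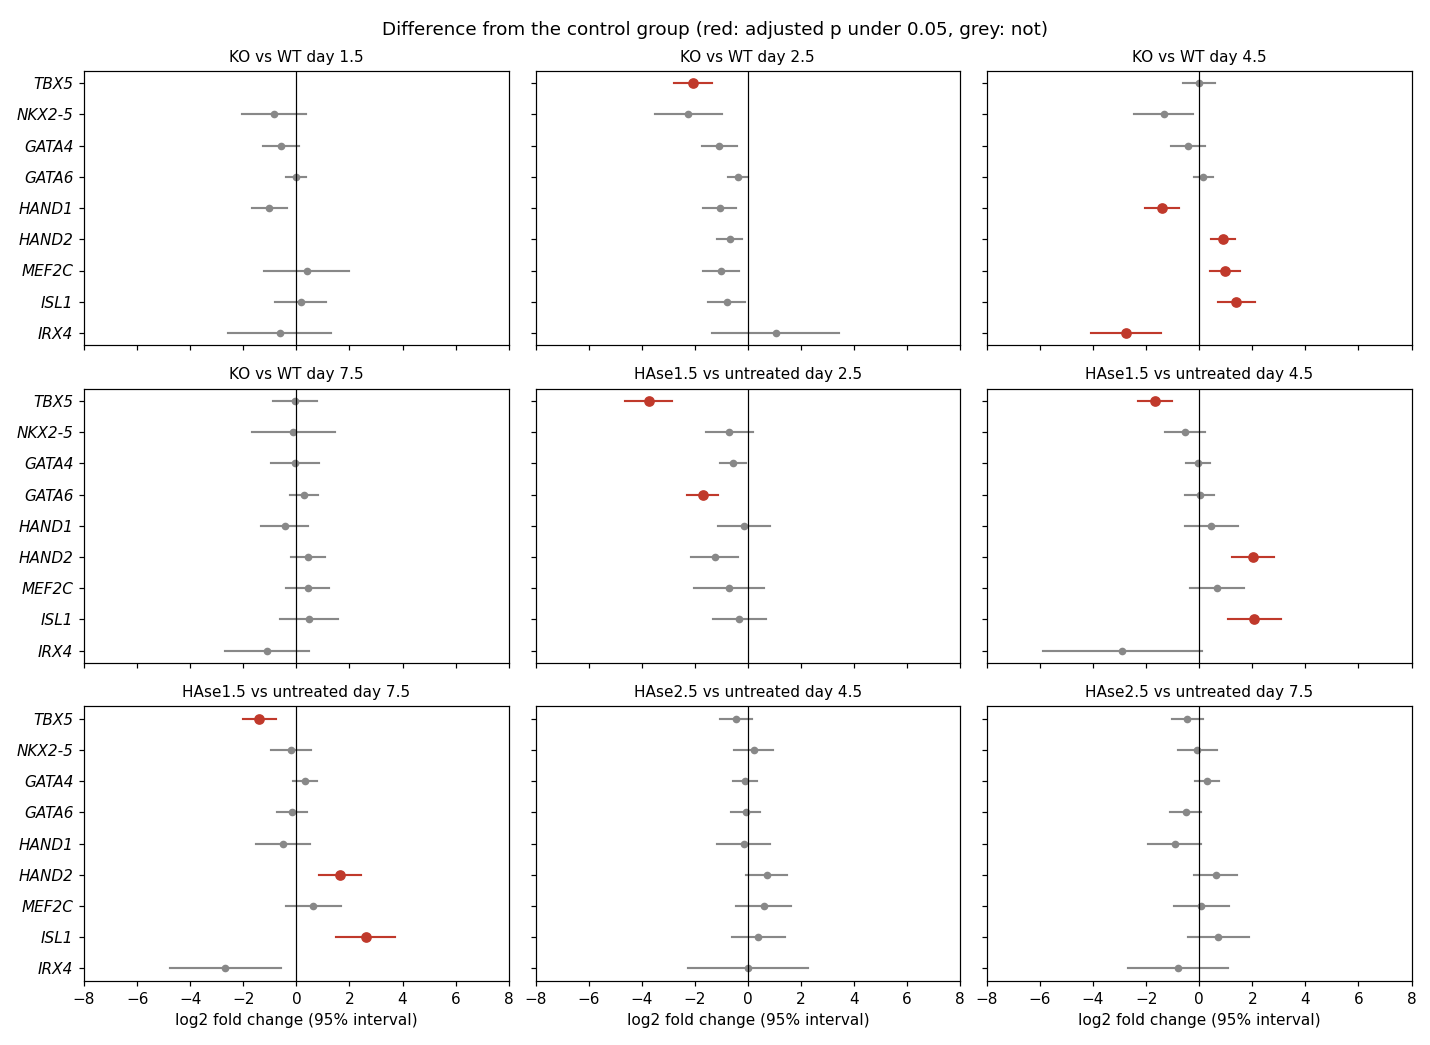
Log2 fold change of each tested member against its control group, with 95% intervals, in 4 KO and 5 hyaluronidase comparisons (red: adjusted p under 0.05). Members at or under 3 counts in every library of both groups are left out. TBX5 is red on the left at day 2.5 in KO and in each HAse1.5 panel, GATA6 is also red on the left in HAse1.5 at day 2.5, HAND2 and ISL1 are red on the right at day 4.5 in KO and at days 4.5 and 7.5 in HAse1.5, and the HAse2.5 panels hold no red point.

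In cardioids given hyaluronidase from day 1.5, TBX5 was lower on every day sampled. At day 2.5 it was at 2.65, 7.27 and 1.87 CPM in lines TNNI1, WT and TNNT2, against 46.7, 59.4 and 48.5 CPM untreated. The groups lay far apart, with a log2 fold change of −3.74 (SE 0.44, adjusted p = 2.70e-05), or 13.4-fold lower. At day 4.5 it was at 44.9, 98.4 and 36.8 CPM against 217, 164 and 185 CPM (−1.66, SE 0.31, adjusted p = 0.0021). At day 7.5 it was at 57.1, 128 and 102 CPM against 248, 208 and 295 CPM (−1.39, SE 0.30, adjusted p = 0.00882). TBX5 reached 10 CPM in every HAse1.5 library at day 4.5, against day 2.5 in untreated ones. The day 7.5 call was lost without the TNNI1 library of HAse1.5 and in a fit of the compared libraries alone (adjusted p = 0.0537).

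GATA6 was the other member called at day 2.5. It was at 36.5, 29.1 and 25.5 CPM in HAse1.5 and 83.4, 109 and 107 CPM untreated, with no overlap. The log2 fold change was −1.70 (SE 0.29, adjusted p = 0.00149). GATA6-AS1, a transcript from the opposite strand that overlaps only the 5′ end of GATA6, fell by 2.03 on the log2 scale (SE 0.34, adjusted p = 0.00159), with 32.5 to 60.5 CPM against 137 to 211 CPM. Counting by strand is not stated in the sources used here, so reads of such pairs may have been exchanged where they overlap. For GATA6 (chr18:22169443-22202528) and GATA6-AS1 (chr18:22164886-22169878), neither annotated 3′ end, where the kit reads, lies in the overlap. At day 4.5 GATA6 was at 45.4, 81.3 and 106 CPM in HAse1.5 and 56.9, 93.1 and 81.7 CPM untreated (log2 fold change 0.02, 95% interval −0.54 to 0.57). The change of the difference between these days was called (1.72, SE 0.39, adjusted p = 0.0342), and that call was lost in 8 of 17 alternatives, 7 of which left out 1 library each (HAse1.5 TNNT2 of day 2.5, WT or TNNT2 of day 4.5, or untreated WT or TNNT2 of day 2.5, TNNI1 or TNNT2 of day 4.5). Adjusted p reached 0.143.

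The 2 calls at day 2.5 were among 9 members tested, with 1.15% of all genes called. The other 7 members had lower fitted values in HAse1.5, none called, and IRX4 among them had 2 counts in 1 untreated library and 0 in every other library of both groups. HAND2 was at 6.63, 37.9 and 30.5 CPM against 49.8, 54.9 and 73.6 CPM, apart but not called (log2 fold change −1.25, adjusted p = 0.246). The WT line stood apart within HAse1.5 at day 2.5. Its HAND1 level was 1261 CPM against 277 and 317 CPM in the other 2 lines, and its MEF2C level was 45.2 CPM against 1.99 and 7.47 CPM. Without that library MEF2C was called lower in HAse1.5 (log2 fold change −2.56, adjusted p = 0.0235, against −0.72 with it), and HAND1 moved from −0.15 to −1.22 (adjusted p = 0.15). Cardiomyocyte markers summed to 1290 to 1428 CPM in HAse1.5 and 2885 to 4138 CPM untreated, with 2 of 15 called lower. Primitive streak markers summed to 241 to 485 CPM against 72.9 to 136 CPM, with 1 of 5 tested called higher. The part of either list in the members' values was not tested.

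**Figure D4:**
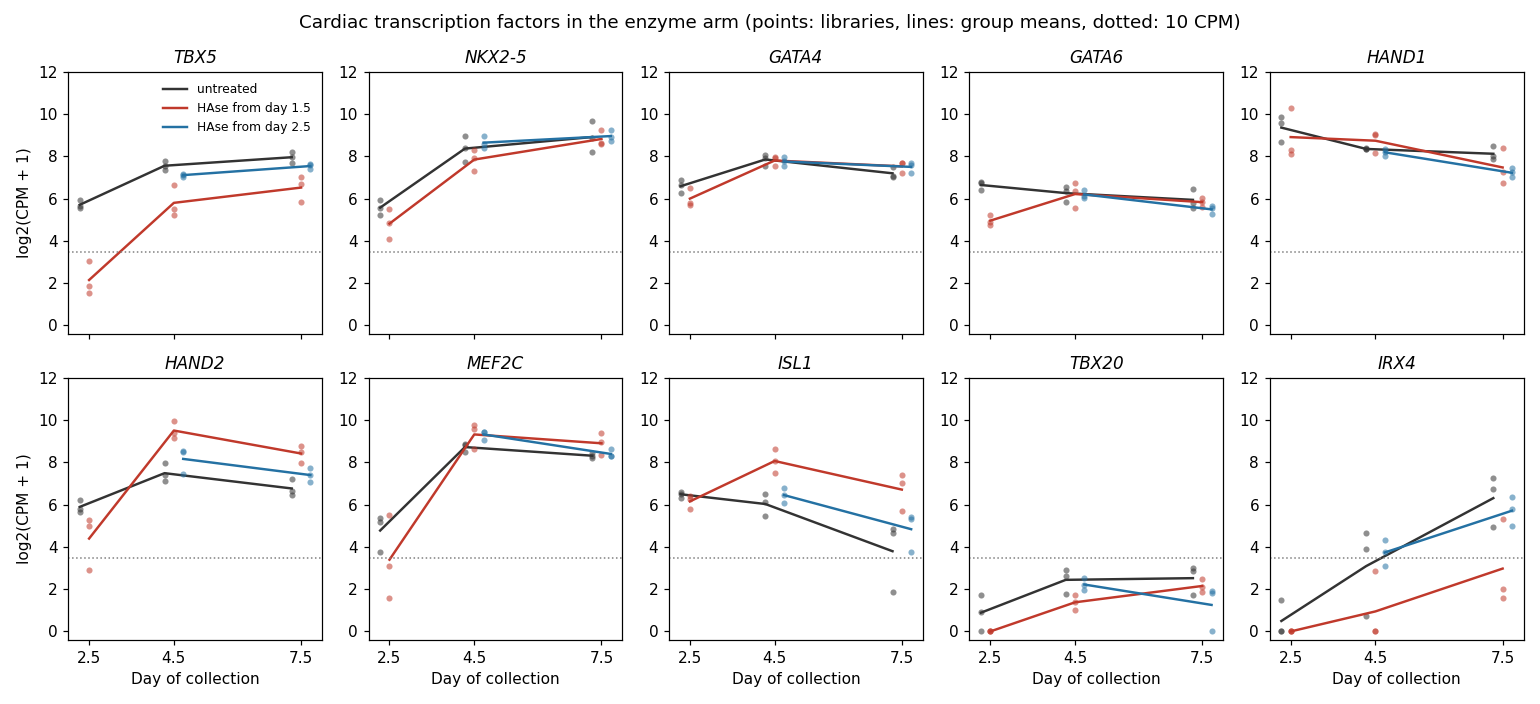
Level of each member as log2(CPM + 1) against day of collection in the enzyme arm (untreated dark, HAse1.5 red, HAse2.5 blue). Points are libraries, lines join group means of the plotted values, and the dotted line is 10 CPM. TBX5 lies lowest in HAse1.5 on all 3 days, while HAND2 and ISL1 in HAse1.5 pass above the untreated libraries at day 4.5.

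HAND2 rose past the untreated level in HAse1.5. At day 4.5 it was at 680, 564 and 1011 CPM in lines TNNI1, WT and TNNT2, against 170, 138 and 247 CPM untreated. The log2 fold change was 2.03 (SE 0.38, adjusted p = 0.00334), or 4.08-fold higher, and higher in 3 of 3 lines. At day 7.5 it was at 438, 254 and 362 CPM against 86.9, 99.5 and 146 CPM (1.65, SE 0.39, adjusted p = 0.0184). The day 7.5 call was lost without the HAse1.5 TNNI1 library or the untreated TNNI1 or WT library (adjusted p up to 0.1), and with no filter on low counts (adjusted p = 0.0505). The difference changed between days 2.5 and 4.5 by 3.28 on the log2 scale (SE 0.57, adjusted p = 0.00541).

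HAND2-AS1 was higher with HAND2, at 165 to 289 CPM against 42.8 to 54.7 CPM at day 4.5 (log2 fold change 2.26, SE 0.32, adjusted p = 0.000193). At day 7.5 its difference was 1.10 (SE 0.31, adjusted p = 0.0475). The annotated HAND2-AS1 gene (chr4:173527270-173659696) covers the 5′ part of HAND2 (chr4:173524969-173530229) and not its 3′ end, where the kit reads.

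ISL1 was higher in HAse1.5 on the same days. At day 4.5 it was at 266, 182 and 396 CPM against 43.8, 68.4 and 89.4 CPM untreated, with no overlap (log2 fold change 2.07, SE 0.48, adjusted p = 0.0174). At day 7.5 it was at 170, 50.6 and 131 CPM against 2.69, 27.7 and 24.5 CPM (2.61, SE 0.53, adjusted p = 0.00814), or 6.10-fold higher. The day 4.5 call was lost without HAse1.5 TNNI1 or TNNT2 or untreated TNNI1 or WT (adjusted p up to 0.12), and with no filter on low counts (adjusted p = 0.0531). The day 7.5 call was lost without HAse1.5 TNNI1 and in a fit of the compared libraries alone (adjusted p = 0.0773). The ISL1 change of difference from day 2.5 to day 4.5 was 2.39 and was not called (SE 0.67, adjusted p = 0.133).

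IRX4 was lowest in HAse1.5 and never reached 10 CPM in every library. At day 7.5 it was at 3.04, 39.3 and 1.99 CPM in lines TNNI1, WT and TNNT2, against 153, 105 and 29.8 CPM untreated, lower in 3 of 3 lines. The difference was not called without the line (log2 fold change −2.68, SE 0.99, adjusted p = 0.17) and was called with the line as a block (−2.96, adjusted p = 0.0215). Without the HAse1.5 library of the WT line it was −5.22 and called (adjusted p = 0.0368). NKX2-5 and GATA4 were not called on any day. At day 4.5 NKX2-5 was at 158, 315 and 243 CPM against 497, 336 and 214 CPM (log2 fold change −0.55, 95% interval −1.30 to 0.21), and GATA4 differed by −0.05 (−0.50 to 0.41).

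At days 4.5 and 7.5, 3 of 9 members were called in HAse1.5, against 3.48% and 3.33% of all genes. Cardiomyocyte markers summed to 4585 to 18100 CPM in HAse1.5 and 25010 to 51230 CPM untreated at day 4.5, with 11 of 15 called lower. At day 7.5 the sums were 30370 to 35530 and 69450 to 84180 CPM, with 5 of 15 called lower. On both days these sums did not overlap. Endoderm markers summed to 17.0 to 56.2 CPM in HAse1.5 and 60.1 to 208 CPM untreated at day 4.5, with 1 of 5 tested called lower, and to 39.9 to 76.4 and 100.8 to 428 CPM at day 7.5, with 2 of 5 called lower. Amnion and surface ectoderm markers summed to 58.9 to 336 CPM in HAse1.5 and 59.5 to 70.0 CPM untreated at day 4.5, with 1 of 3 tested called higher. Those ranges overlapped, and the median log2 fold change of the 3 was −0.05. The part of these markers in the TBX5, HAND2 and ISL1 differences was not tested. Among the HAse1.5 changes of difference from day 2.5 to day 4.5, 2 members were called and 0.706% of all genes. From day 4.5 to 7.5 none was called (0.0157% of genes), with 0 members at an unadjusted p under 0.05 and 0 called by DESeq2.

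Hyaluronidase from day 2.5 gave no member call. At day 4.5, 0.22% of all genes were called, and at day 7.5, 0.659%. No member had an unadjusted p under 0.05 on either day, and DESeq2 called 0. TBX5 was at 140, 144 and 129 CPM in HAse2.5 at day 4.5, below the 3 untreated libraries (log2 fold change −0.46, 95% interval −1.06 to 0.15). HAND2 was at 362, 174 and 375 CPM and ISL1 at 67.0, 87.9 and 111 CPM on that day, each higher than untreated in 3 of 3 lines (0.71 and 0.40, adjusted p = 0.789 and 0.998). No change of the HAse2.5 difference from day 4.5 to 7.5 was called for a member (0% of genes called), with 0 members at an unadjusted p under 0.05 and 0 by DESeq2.

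The 2 starting days were compared directly. At day 4.5 the HAse1.5 libraries lay below HAse2.5 for TBX5 (44.9, 98.4 and 36.8 against 140, 144 and 129 CPM) and above it for HAND2 and ISL1, without overlap. NKX2-5, IRX4 and, at a few counts, TBX20 also lay below without overlap. The share of all genes without overlap was not computed. No member was called at day 4.5 (0.361% of genes) or at day 7.5 (0.00784%). At day 4.5, 4 members had an unadjusted p under 0.05 and DESeq2 called 3, and at day 7.5, 3 had one and DESeq2 called 0. Of all 12748 tested genes, 1230 had one at day 4.5 and 719 at day 7.5. With the line as a block, TBX5 (log2 fold change −1.25, adjusted p = 0.0402) and HAND2 (1.31, adjusted p = 0.0499) were called at day 4.5. Without the HAse1.5 library of the WT line TBX5 (−1.74, adjusted p = 0.00189) and ISL1 (1.9, adjusted p = 0.0496) were called.

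The KO and HAse1.5 differences were set side by side, each against its own controls. At day 2.5 the TBX5 difference was −2.06 in KO and −3.74 in HAse1.5. At day 4.5 it was −0.01 and −1.66, and the difference between the arms was −1.68 (SE 0.47, adjusted p = 0.141). HAND1 at day 4.5 was −1.41 in KO and 0.46 in HAse1.5, a difference of 1.84 (SE 0.57, adjusted p = 0.214). HAND2 was 0.89 and 2.03, and ISL1 was 1.4 and 2.07. No member was called between the arms at day 4.5 (0.271% of genes) or day 7.5 (0.0925%). On each day 3 members had an unadjusted p under 0.05, and DESeq2 called 0. Of all 14047 tested genes, 937 had one at day 4.5 and 1035 at day 7.5. The arms were separate sets of libraries, so library set and treatment cannot be told apart in this contrast.

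By the cutoff of 10 CPM in every library, 2 members came on later in KO than in WT: TBX5 (day 4.5 against 2.5) and NKX2-5 (day 4.5 against 1.5). NKX2-5 had KO values of 7.10 to 88.8 CPM at day 1.5 and 7.34 to 19.6 CPM at day 2.5, close to the cutoff. With 5 CPM the 2 later members were TBX5 and IRX4, and with 20 CPM there was none. By the group median at 10 CPM there were 3, TBX5, MEF2C and IRX4, and NKX2-5 came on at day 1.5 in both groups. In HAse1.5, 4 members came on later than in untreated cardioids: TBX5, HAND2 and MEF2C at day 4.5 against day 2.5, and IRX4 not by day 7.5. HAND2 and MEF2C each missed the cutoff at day 2.5 through the TNNI1 library (6.63 and 1.99 CPM), and MEF2C also through TNNT2 (7.47 CPM). With 5 CPM, and by the group median at 10 CPM, there were 3 later members and HAND2 was not among them. With 20 CPM there were 4, with NKX2-5 in place of MEF2C. No day between 2.5 and 4.5 was sampled, so an onset day is known only to that spacing.

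A list of 56 other genes, named other cardiac transcription factors here, was read beside the members. It also holds XIRP1, which encodes an actin-binding muscle protein and is not a transcription factor. At day 2.5, 4 of 47 tested were called in KO, all higher, among them MESP2. MESP1, MESP2, TBX6 and EOMES are also on the primitive streak and early mesoderm list, so MESP2 is counted in both lists. MESP2, a factor of early mesoderm, was at 17.5 to 63.0 CPM in KO and 1.99 to 8.83 CPM in WT (log2 fold change 3.36, SE 0.45, adjusted p = 3.06e-05). It also had the largest called rise of this list in HAse1.5 at day 2.5 (4.30, SE 0.66, adjusted p = 0.00147), where 2 of 46 were higher and 3 lower. LBH was the other higher one (1.43). MYOCD, a coactivator of cardiac muscle genes, fell by 2.55 (SE 0.43, adjusted p = 0.0023), with 19.9 to 88.0 CPM against 217 to 317 CPM, and TBX2 fell by 2.53 (adjusted p = 0.0417).

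At day 4.5, 4 genes of this list were higher in KO and 3 lower. NR2F2 and NR2F1, orphan nuclear receptors linked to atrial identity, rose by 2.45 (SE 0.41, adjusted p = 0.000177) and 2.87 (SE 0.66, adjusted p = 0.00882) on the log2 scale. XIRP1 and TEAD4 fell by 1.89 and 1.75 (adjusted p = 0.00332 and 0.000865). In HAse1.5 at day 4.5, 4 were higher and 3 lower. IRX5 rose by 1.72 (adjusted p = 0.00416) and PRRX1 by 3.87 (adjusted p = 0.0429). NR2F2 fell by 3.00 (adjusted p = 0.00448) and XIRP1 by 2.45 (adjusted p = 0.0197).

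At day 7.5 none of these factors was called in KO. In HAse1.5, 3 were higher and 1 lower, with IRX5 at 2.00 (adjusted p = 0.00198), ID1 at 1.19 (adjusted p = 0.043) and NR2F2 at −2.07 (adjusted p = 0.0456). In HAse2.5, 2 were called at day 7.5, IRX5 (1.86, adjusted p = 0.0153) and PBX3 (1.83, adjusted p = 0.0199), and 0 at day 4.5. The median of the list lay between −0.46 and 0.23 in the 9 comparisons with controls, and that of all genes between −0.03 and 0.02.

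Likeness of course was measured as Pearson's r of group mean log2 CPM over the 16 groups, which share libraries and scaling, and is a description. NKX2-5 was most like TNNT2 (0.988), TRIM54 (0.986) and MYH6 (0.983). TNNT2 and MYH6 encode sarcomere proteins, and both belong to the cardiomyocyte marker list. TBX5 was most like PKP2 (0.987), a desmosomal protein gene, DPF3 (0.983) and SLC30A3 (0.979). MEF2C was most like NID2 (0.989), DIXDC1 (0.983) and MIR99AHG (0.983), and HAND2 most like LHFPL2 (0.987), SHD (0.984) and SMIM14 (0.976). ISL1 was most like GATA2 (0.943), ISL1-DT (0.94), a divergent transcript of its own locus, and C1GALT1 (0.928).

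IRX4 was most like CCRL2 (0.986), IRX4-AS1 (0.982), which lies inside IRX4 on the opposite strand, and HSPB2 (0.971). GATA4 was most like BAMBI (0.966), TMEM65 (0.959) and ST7 (0.955). The likeness was lowest for GATA6 and HAND1. GATA6 reached 0.885 with EEF2KMT, 0.878 with RNF182 and 0.869 with RBM19, and HAND1 reached 0.863 with SMAD1, 0.842 with NMNAT2 and 0.833 with PRXL2A. Among the members themselves, TBX5 had 0.899 with NKX2-5 and −0.514 with GATA6. For TBX20, at a few counts, the likeness (0.948 with ADCK5, 0.928 with LPCAT4) rests on near-floor values.

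Of the opposite-strand neighbours, TBX5-AS1 gave 132 counts over all libraries against 12850 for TBX5, MEF2C-AS1 gave 477 against 33672 for MEF2C, and MEF2C-AS2 gave 0. GATA6-AS1 gave 30488 against 10848 for GATA6 and HAND2-AS1 gave 5924 against 16858 for HAND2. GATA6-AS1 in WT had a median of 157.5 CPM at day 1.5, 136.5 CPM at day 2.5, 296 CPM at day 4.5 and 239 CPM at day 7.5, a course without the steady decline of the GATA6 ranges.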

How the data were processed

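The authors deposited whole-number read counts per Ensembl gene. Per the submitters' processing notes, reads were counted with featureCounts of Subread 1.6.2 on GRCh38 (hg38). Aligner, strand setting, handling of reads that match several genes and use of molecular identifiers are not given in the sources used here. Per the labels' protocols, libraries were made with the QuantSeq 3′ FWD kit from pools of 8 cardioids. All 58735 gene IDs occur in GENCODE 29, which gave gene positions. A further 4 columns of the table belong to no listed sample and were not used. Counting intervals cover counting error only. All 115 pairs of replicates differed beyond it (chi-square per degree of freedom 2.07 to 71.8), so none was taken as a copy. Per the labels' protocols each condition had at least 3 biological replicates. They do not say which libraries of 1 line were separate cultures, so p-values measure the spread between these libraries.

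Counts were tested with edgeR 4.0.16 in R 4.3.3 (filterByExpr with a minimum count of 10, TMM, robust quasi-likelihood fit), in 1 model for each arm in which every group has its own mean. The contrast between arms used 1 fit of all 65 libraries. P-values are two-sided and adjusted over all tested genes by Benjamini-Hochberg, with a threshold of 0.05. SE is the size of the log2 fold change divided by the root of F. CPM in the text are TMM-scaled over 65 libraries. A fold against a group with no counts is a bound from 3 counts per library. The test was tried on simulated counts with known changes. These counts held no clone, line or block effect, so they do not check the test under such effects. DESeq2 1.42.0, other size factors, no filter, only the compared libraries, each library left out and a replicate block were alternatives.

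In the enzyme arm, replicate numbers mark the line, so the same number is the same line. Residuals of 13 of 21 same-line pairs correlated above 0.1 (−0.088 to 0.426), against 5 of 42 pairs of different lines. In the genotype arm, 27 of 37 same-block pairs did, against 7 of 74.

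The named genes are the members, their opposite-strand neighbours, the 3 genes most like each member, and of 56 other cardiac factors the 2 highest and 2 lowest called in each comparison with controls, of which 1 is not reported here. The members, lists and tests were chosen with earlier results of these data known. Promoter sequences are from RefSeq (GRCh38.p14).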

Additional observations from a re-analysis of the deposited data

Results flagged for a closer look

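Of 56 member groups of 5 or 6 libraries, 4 held a library set apart from the rest by Dixon's gap test, and chance alone gives about 1 in 20 groups. TBX5 in WT library WT_R1 of day 2.5 was 70.4 CPM, against 10.2 to 31.4 CPM in the others. NKX2-5 in KO library cl4_R1 of day 1.5 was 88.8 CPM, against 7.10 to 27.2 CPM. HAND1 in WT_R1 of day 4.5 was 774 CPM, against 288 to 394 CPM. HAND2 in KO cl4_R1 of day 1.5 was 0.378 CPM, which is 1 count, against 0 in the others, so this gap carries no information. All of these libraries belong to block A of the library numbers.

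For 6 members and days a difference from controls changed between days by an interaction test. The KO difference moved between days 2.5 and 4.5 by 2.05 for TBX5, 1.58 for HAND2, 1.96 for MEF2C and 2.19 for ISL1 on the log2 scale. The HAse1.5 difference moved between the same days by 1.72 for GATA6 and 3.28 for HAND2.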

How the results depend on the processing

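Of 64 calls among 270 member results, 48 held in every alternative run for them, and no called member took another sign. Of 206 uncalled results, 39 were called in at least 1 alternative and 47 took another sign in some alternative while uncalled. The cause of the shifts below was not tested.

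Counts of members called moved as follows. The WT step from day 4.5 to 7.5 (1 call) gave 0 without the filter on low counts, 0 with only the compared libraries, 2 with the replicate block and 4 without block A. The untreated step to day 7.5 (1) gave 0 with RLE size factors, 0 with only the compared libraries and 3 with the replicate block. The HAse1.5 step to day 7.5 (0) gave 1 with the block, 1 with only the compared libraries and 1 with DESeq2, and the HAse2.5 step (0) gave 5 with only the compared libraries. KO against WT at day 2.5 (1) gave 5 with the block, 4 without block A, 3 with only the compared libraries and 2 with DESeq2. The replicate block by number block added NKX2-5 (−1.5, adjusted p = 0.00891), GATA4 (−0.77, 0.00562), HAND1 (−0.83, 0.0461) and HAND2 (−0.78, 0.00941). With only the compared libraries, KO against WT gave 3 at day 4.5 (5) and 1 at day 7.5 (0), and HAse1.5 against untreated at day 7.5 (3) gave 1. HAse1.5 against HAse2.5 at day 4.5 (0) gave 1 without the filter, 2 with the block and 3 with DESeq2, and at day 7.5 (0) it gave 1 without the filter. The change of the HAse1.5 difference to day 4.5 (2) gave 4 with DESeq2. Without the filter, the contrast between arms gave 2 at day 4.5 and 1 at day 7.5 (0 on both days otherwise). Members with a later onset in KO (2) numbered 0 at 20 CPM.

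With 1 library left out at a time, counts ran from 6 to 6, 7 to 7 and 0 to 2 for the WT steps, and 6 to 6, 5 to 8 and 2 to 4 for the KO steps. They ran from 5 to 6 and 0 to 2 for untreated steps, 7 to 7 and 0 to 1 for HAse1.5 and 0 to 0 for HAse2.5. KO against WT gave 0 to 0, 1 to 2, 2 to 5 and 0 to 0 by day. HAse1.5 against untreated gave 2 to 3, 2 to 3 and 0 to 4. HAse2.5 against untreated gave 0 to 0, and HAse1.5 against HAse2.5 gave 0 to 2 and 0 to 0. The changes of the KO difference gave 0 to 0, 2 to 4 and 0 to 0, those of HAse1.5 1 to 4 and 0 to 0, and that of HAse2.5 0 to 0. For the contrast between arms, leaving out single libraries was not run.

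The falls of HAND2 and GATA6 in KO to day 7.5 lost their calls without any 1 of cl14_R1, cl4_R2 or cl4_R3 of day 7.5, and the untreated ISL1 step lost it without TNNI1 or TNNT2 of day 7.5 or WT or TNNT2 of day 4.5. The HAND1 fall in KO from day 2.5 to 4.5 was lost in 7 of 18 alternatives, 6 of them without 1 library (cl4_R1 or cl4_R2 of day 2.5, cl46_R1, cl4_R1, cl4_R2 or cl51_R1 of day 4.5), and the ISL1 rise in KO without cl46_R1 of day 4.5. Few counts limit the precision of TBX20 and of early IRX4.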

Other observations

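Among the other cardiac factors, NR2F2 moved in opposite directions in the 2 arms at day 4.5. It was at 46.5 to 90.7 CPM in KO and 7.16 to 27.7 CPM in WT, and at 0.775 to 8.11 CPM in HAse1.5 and 17.7 to 79.7 CPM untreated. The difference between the HAse1.5 and KO contrasts was −5.48 on the log2 scale (SE 0.77, adjusted p = 2.3e-05, edgeR quasi-likelihood test) at day 4.5 and −3.98 (SE 0.85, adjusted p = 0.034) at day 7.5. WT and the untreated group are separate sets of libraries. Leaving out single libraries was not run for this contrast.

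IRX5 was higher than in controls in both arms at day 4.5, and its KO value is outside the naming rule and was chosen after the values were seen. It was at 58.3 to 74.1 CPM in KO against 26.5 to 53.3 CPM in WT (log2 fold change 0.76, adjusted p = 0.0171), and at 143 to 173 CPM in HAse1.5 against 35.4 to 76.6 CPM untreated. IRX4, a gene of the same family, was called lower on that day in KO and not in HAse1.5 (log2 fold change −2.89, adjusted p = 0.387). Its HAse1.5 libraries, at 0 to 6.2 CPM, overlapped the untreated ones, at 0.643 to 24.2 CPM. Each was lower than the untreated library of its line.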
